A study of Mus musculus with 6 samples.

Results

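The genes described here are the 10 Krüppel-like factor (KLF) genes with known roles in fat cell formation or fat cell metabolism, Klf2, Klf3, Klf4, Klf5, Klf6, Klf7, Klf9, Klf13, Klf14 and Klf15, chosen by symbol from the 35122 genes of the table. All 10 were matched to a row, and 9 had enough counts to be tested. RNA came from the floating adipocyte fraction of epididymal fat pads digested with collagenase, taken from male C57BL/6 mice on a standard chow diet, with 1 library per mouse. The 3 control mice carried PU.1 fl/fl, that is, both alleles of Spi1 (the gene of the transcription factor PU.1) with a loxP-flanked exon and no Cre. The 3 aPU.1KO mice carried the same floxed alleles and AdipoqCre, a Cre transgene driven by the adiponectin promoter, which is active in fat cells. That promoter does not direct Cre to blood-derived cells of the fat pad. All 6 mice were 10 to 11 months old by the labels. The text of the study names a greater age for the sequenced mice. Mice are numbered 1 to 3 within each group, and the numbers pair no mice across groups.

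KLF proteins are zinc finger transcription factors that bind GC-rich and CACCC sequences through related fingers at their carboxyl end, while their other parts recruit different coactivators or corepressors. During adipogenesis they act in a relay around C/EBP proteins and PPARγ, the master regulator of the fat cell: KLF4 acts early on Cebpb, KLF5, KLF9 and KLF15 act on Pparg or its targets, and KLF2, KLF3 and KLF7 hold differentiation back. Several of them are also expressed in blood vessels and leukocytes, above all KLF2 and KLF4, which are induced by blood flow in endothelial cells. Most of these roles were worked out in differentiating precursor cells, whereas the cells sampled here were taken from adult fat.

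The estimated counts summed to between 20550252 and 69283842 per library, with control mouse 1 the deepest and the other 5 at 24310144 or fewer. Values are given as CPM, counts scaled to a common library size with TMM factors, and log2 fold changes are aPU.1KO over control from edgeR's quasi-likelihood test, adjusted by Benjamini-Hochberg over 13925 genes. Spi1, counted over all its exons, stood at 24.3, 6.35 and 26.7 CPM in the control mice and at 3.20, 1.22 and 4.17 CPM in the aPU.1KO mice (log2 fold change -2.75, standard error 0.64, edgeR adjusted p = 0.0788). Of 10 adipocyte markers, 9 lay above the whole control range in all 3 aPU.1KO mice and 1 (Lep) lay below it. Of all genes tested, 16.7% lay above and 15.5% below in this way. The summed level of these markers was 26699 to 29123 CPM in control and 32372 to 38917 CPM in aPU.1KO mice. Summed macrophage markers were 480 to 1477 CPM in control and 263 to 337 CPM in aPU.1KO mice, with 10 of 12 at an unadjusted p under 0.05, all lower. At that p 13.7% of all genes tested were lower, and 25.7% passed in either direction. Summed progenitor markers were 1347 to 1807 CPM against 734 to 1057 CPM, with 7 of 10 lower at that p. The endothelial markers, 12 of 12 fitted lower, summed to 842 to 1271 CPM against 512 to 1068 CPM, and 2 were lower at that p, a share near that of all genes. Without aPU.1KO mouse 2, 11 were lower at that p. Over the alternative fits described below, at most 27.4% of all genes had such a p in either direction. The mural list (7 tested) held 3 lower genes at an unadjusted p under 0.05, the mesothelial (7 of 8 tested) and lymphocyte (4 of 8 tested) lists none in either direction, and the hepatocyte list 10 of 10 lower, among which Fgb had no count in any aPU.1KO mouse. In bulk RNA, fewer cells of a type and less RNA per cell cannot be told apart, and the part of these shifts in the values of the KLF genes was not tested.

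No KLF gene passed an adjusted p under 0.05 in edgeR, a threshold that 0.237% of all genes tested passed. Klf2 lay below and Klf15 above the whole control range in all 3 aPU.1KO mice, and Klf7 was lower with overlapping groups. These 3 genes had an unadjusted edgeR p under 0.05, 2 lower and 1 higher, where 13.7% of all genes tested were lower and 11.9% were higher at that p (25.7% in either direction). Groups that did not overlap were found in the lower direction for 1 of the 9 KLF genes and 15.5% of all genes, and in the higher direction for 1 of the 9 and 16.7% of all genes. With 9 genes, 1 gene more or fewer moves such a share by more than the distance between it and that of all genes, so these counts do not set the KLF genes apart. The median log2 fold change of the 9 genes was -0.02, beside 0.01 over all genes tested. The 10 genes together summed to 803, 854 and 741 CPM in the control mice and to 714, 920 and 710 CPM in the aPU.1KO mice, and these sums overlapped.

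**Figure D1:**
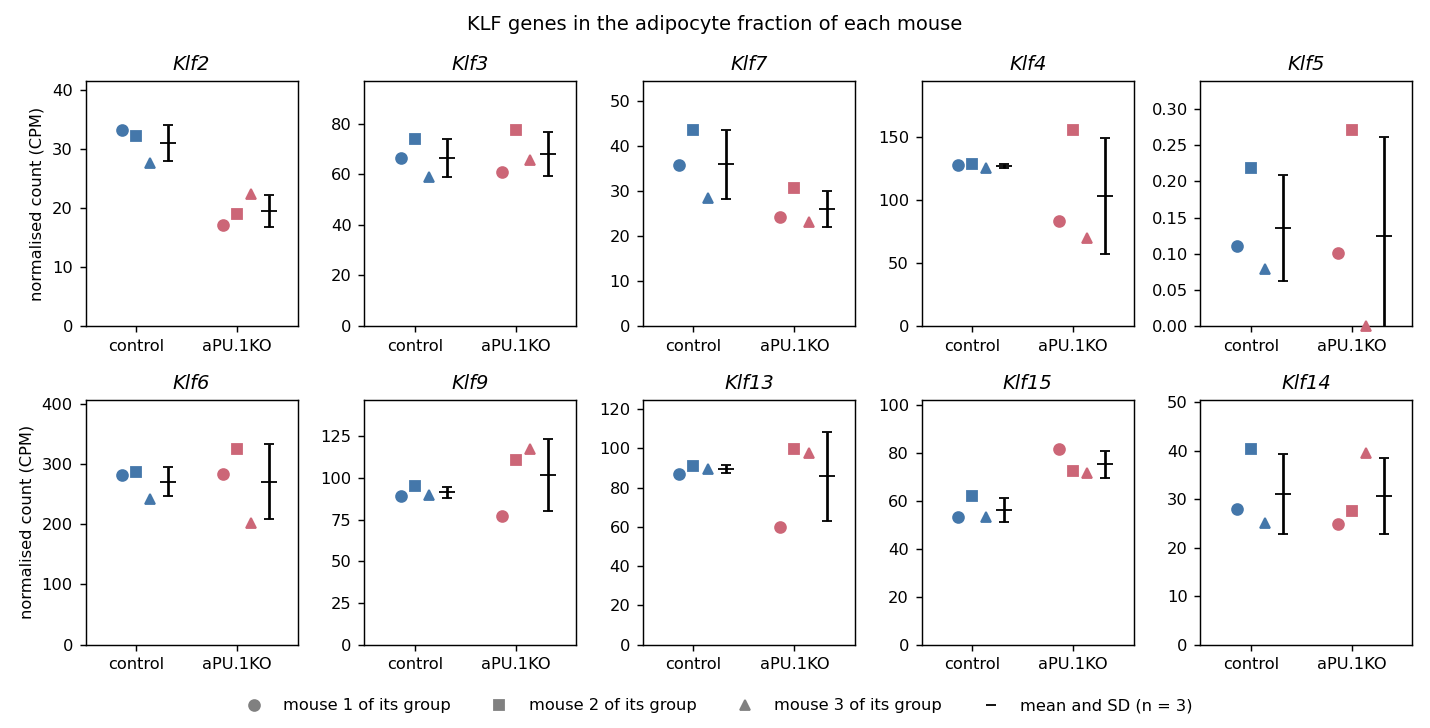
Normalised counts (CPM, vertical axes starting at 0) of the 10 KLF genes in the 3 control mice (blue) and the 3 aPU.1KO mice (red), 1 symbol per mouse, with the mean and SD of each group as a black bar. The groups are apart for Klf2 (lower in aPU.1KO) and Klf15 (higher in aPU.1KO), while the aPU.1KO mice spread far more than the control mice for Klf4, Klf9 and Klf13.

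Upstream sequence is shown for Klf2 and Klf15, whose groups did not overlap, and for Klf4, whose aPU.1KO mice differed most among themselves relative to their mean among the 9 genes tested. The sequences are from RefSeq (GRCm38.p6), which matched 8 of the 10 genes (not Klf5 and Klf14), and hold the bases before the start site that lie in no annotated exon of the gene, up to 250. Capitals mark matches, on either strand, to the GC box GGGCGG and to CACCC, both of them letters that KLF and SP proteins can bind, and to the binding site of MEF2, a factor upstream of Klf2 in endothelial cells.
Klf2, chr8:72318812-72319032, plus strand: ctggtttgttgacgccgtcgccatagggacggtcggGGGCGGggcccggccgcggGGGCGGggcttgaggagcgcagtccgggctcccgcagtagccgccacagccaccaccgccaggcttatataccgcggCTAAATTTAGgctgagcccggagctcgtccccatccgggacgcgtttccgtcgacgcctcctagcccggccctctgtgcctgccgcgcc
Klf15, chr6:90462326-90462575, plus strand: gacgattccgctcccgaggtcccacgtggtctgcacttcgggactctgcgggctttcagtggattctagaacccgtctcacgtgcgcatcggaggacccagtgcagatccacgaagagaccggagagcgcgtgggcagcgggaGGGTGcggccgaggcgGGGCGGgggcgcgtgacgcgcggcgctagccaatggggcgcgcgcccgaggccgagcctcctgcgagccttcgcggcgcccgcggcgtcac
Klf4, chr4:55532476-55532725, minus strand: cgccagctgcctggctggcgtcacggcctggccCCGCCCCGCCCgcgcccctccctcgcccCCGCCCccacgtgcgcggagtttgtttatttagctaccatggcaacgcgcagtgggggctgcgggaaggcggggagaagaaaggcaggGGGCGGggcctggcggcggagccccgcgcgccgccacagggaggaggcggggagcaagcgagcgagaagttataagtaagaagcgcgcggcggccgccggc
The Klf2 window held 2 GC boxes and 1 MEF2 match, and 28.7% of the 32851 RefSeq promoters held at least 1 GC box and 2.61% held at least 1 MEF2 match in the same window. The Klf15 window held 1 GC box and 1 CACCC, each found at least once in 32.7% and 52.0% of promoters, and the Klf4 window held 4 GC boxes, some of them overlapping. GAGGAA, letters at the core of sites that PU.1 and other ETS factors can bind, was not in the 8 windows read for the KLF genes, while 23.3% of all promoters held it in 250 bases and 11.7% in 117 bases, the shortest of these windows. Neither match nor absence says anything about binding in these cells.

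The KLF genes that hold adipogenesis back are Klf2, Klf3 and Klf7. Klf2 (ENSMUSG00000055148, chromosome 8, 72319033 to 72321656), whose protein represses Pparg in preadipocytes and keeps the endothelium quiescent, stood at 33.2, 32.2 and 27.5 CPM in control mice 1, 2 and 3 and at 17.0, 19.0 and 22.4 CPM in aPU.1KO mice 1, 2 and 3. The highest aPU.1KO mouse was below the lowest control mouse. Its mean in aPU.1KO mice was 62.8% of that in control mice, and the log2 fold change was -0.67 (standard error 0.13, 95% interval -0.98 to -0.36) at an unadjusted p of 0.00144. Over all genes the adjusted p was 0.0753 in edgeR, while DESeq2 gave an adjusted p of 0.000731, and DESeq2 called 11.0% of the genes it adjusted. Klf2 was lower in every one of the 14 alternative fits, with log2 fold changes from -0.78 to -0.59. Its groups stayed apart in each, but leaving out a mouse could hardly make groups overlap that are apart with all mice. The highest edgeR adjusted p, without control mouse 1, was 0.313.

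Klf2 was lowest in aPU.1KO mouse 1, in which all 12 endothelial markers were also at their lowest. The summed endothelial markers were 1080, 1271 and 842 CPM in the control mice and 512, 1068 and 713 CPM in the aPU.1KO mice. They overlapped between the groups through aPU.1KO mouse 2, where Klf2 itself remained below all 3 control mice. The summed macrophage markers were 1477, 480 and 1427 CPM in the control mice and 337, 263 and 316 CPM in the aPU.1KO mice. The summed progenitor markers were 1807, 1347 and 1636 CPM in the control mice and 734, 807 and 1057 CPM in the aPU.1KO mice. Both sums, like Klf2, did not overlap between the groups. The part of any cell type in the Klf2 difference was not tested.

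Klf7 (ENSMUSG00000025959, chromosome 1, 64029447 to 64122282), whose protein impairs fat cell differentiation and adipokine expression, stood at 35.9, 43.6 and 28.4 CPM in the control mice and at 24.3, 30.7 and 23.1 CPM in the aPU.1KO mice. Only aPU.1KO mouse 2 reached into the control range, above control mouse 3. The log2 fold change was -0.47 (standard error 0.18, 95% interval -0.90 to -0.03), with an unadjusted p of 0.0384 and an edgeR adjusted p of 0.171. With 1 mouse left out it ran from -0.61, without control mouse 3, to -0.32, and the groups were apart without control mouse 3 or without aPU.1KO mouse 2, as were those of 40.1% and 43.6% of all genes in these smaller fits. In the other 4 of the 6 fits with a mouse left out its unadjusted p was 0.0643 to 0.12. Klf7 shares 3196 bases of exon with Gm26649 and 4 bases with Gm13748, both on the other strand, and whether the counting used strand is not given in the sources used here, so that part of its count may belong to these genes. Gm26649 is not among the genes counted, so its level could not be read.

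Klf3 (ENSMUSG00000029178, chromosome 5, 64803388 to 64832901), which represses Cebpa together with CtBP corepressors, was at 66.3, 74.0 and 58.7 CPM in control mice and at 60.8, 77.4 and 65.6 CPM in aPU.1KO mice. The groups covered nearly the same range, and the log2 fold change was 0.03 with a 95% interval of -0.26 to 0.33 (edgeR adjusted p = 0.882). Its sign changed when control mouse 3 was left out (-0.05) and when aPU.1KO mouse 2 was (-0.07). Klf3 shares 404 bases of exon with Gm20033 on the other strand, which is also not among the genes counted, so part of the Klf3 count may belong to it.

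Among the KLF genes that promote adipogenesis, Klf15 (ENSMUSG00000030087, chromosome 6, 90462576 to 90475238) was the only one of the 5 tested whose groups did not overlap. KLF15 induces the glucose transporter gene Slc2a4 and genes of amino acid breakdown, and is itself induced by glucocorticoids and fasting. It stood at 53.2, 61.9 and 53.4 CPM in the control mice and at 82.0, 72.7 and 71.8 CPM in the aPU.1KO mice. All 3 aPU.1KO mice were above control mouse 2, the highest control. The aPU.1KO mean was 134% of the control mean, and the log2 fold change was 0.43 (standard error 0.09, 95% interval 0.20 to 0.65), at an unadjusted p of 0.00289 and an edgeR adjusted p of 0.0783. Klf15 was higher in all 14 alternative fits (log2 fold change 0.35 to 0.49). Its groups stayed apart in each, though here too leaving out a mouse could hardly make them overlap. DESeq2 gave an adjusted p of 0.0127, and edgeR without control mouse 2 gave 0.0324, where 8.34% of all genes passed, while without control mouse 1 the edgeR adjusted p was 0.338. Summed adipocyte markers were likewise above the control range in all 3 aPU.1KO mice, and their part in the Klf15 difference was not tested.

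Klf4 (ENSMUSG00000003032, chromosome 4, 55527143 to 55532466), which acts on Cebpb at the onset of differentiation and is an immediate early gene in many cells, was at 128, 129 and 125 CPM in the control mice and at 83.6, 156 and 69.9 CPM in the aPU.1KO mice. Control mice lay within a few CPM of each other, whereas aPU.1KO mouse 2 lay above all of them and aPU.1KO mice 1 and 3 far below. The SD was 1.67 CPM among the controls and 46.1 CPM in the knockout group. The log2 fold change was -0.30 (95% interval -0.97 to 0.37, edgeR adjusted p = 0.534). Without aPU.1KO mouse 2 it was -0.73 with the groups apart, as 43.6% of all genes were in that fit (unadjusted p 0.000302, edgeR adjusted p = 0.0792), and without aPU.1KO mouse 3 it was -0.09.

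Klf6 (ENSMUSG00000000078, chromosome 13, 5861482 to 5870394), which represses the preadipocyte gene Dlk1 and is also quickly induced by stress, was at 283, 287 and 243 CPM in control and at 284, 326 and 203 CPM in aPU.1KO mice. As for Klf4, aPU.1KO mouse 2 was the highest and aPU.1KO mouse 3 the lowest of all 6. The log2 fold change was 0.00 (95% interval -0.42 to 0.42, edgeR adjusted p = 0.996). Its sign changed in 10 of 14 alternative fits, with values between -0.15 and 0.18.

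The same mice stood at the ends of the immediate early genes, which are switched on within minutes by stress, handling or growth factors and were read here over 19 genes such as Fos, Egr1 and Jun. Of these, 17 were highest in aPU.1KO mouse 2 and 17 lowest in aPU.1KO mouse 3. Their summed level was 4439, 5029 and 4068 CPM in control and 6130, 9327 and 3257 CPM in aPU.1KO mice. The groups overlapped, and none of the 19 had an unadjusted edgeR p under 0.05, beside 25.7% of all genes. Without aPU.1KO mouse 3, 12 did so, all higher, where 13.3% of all genes were higher at that p. The 3 with the smallest p were Ier2 (log2 fold change 0.90, unadjusted p 0.0545), Ier3 (1.10, p 0.0818) and Btg2 (0.64, p 0.0866). In aPU.1KO mouse 1 the immediate early sum was above all control mice and Klf4 below all of them. The part of immediate early activation in the Klf4 and Klf6 levels was not tested.

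Klf9 and Klf13, which act on Pparg, Cebpa or both, spread in another way. Klf9 (ENSMUSG00000033863, chromosome 19, 23141226 to 23168134) was at 89.1, 95.2 and 89.8 CPM in control and at 77.0, 111 and 118 CPM in aPU.1KO mice, and Klf13 (ENSMUSG00000052040, chromosome 7, 63886351 to 63938915) was at 87.1, 91.1 and 89.7 CPM in control and at 59.8, 99.9 and 97.5 CPM in aPU.1KO mice. For both genes aPU.1KO mouse 1 was the lowest of all 6 mice, and aPU.1KO mice 2 and 3 were above every control mouse. The log2 fold change was 0.16 for Klf9 (95% interval -0.22 to 0.53, edgeR adjusted p = 0.568) and -0.06 for Klf13 (95% interval -0.51 to 0.39, edgeR adjusted p = 0.869). Without aPU.1KO mouse 1 it was 0.31 for Klf9, with an unadjusted p of 0.00969, and 0.13 for Klf13, with an unadjusted p of 0.117. Both genes then had groups apart, as had 40.5% of all genes in that fit.

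Klf5 (ENSMUSG00000005148, chromosome 14, 99298691 to 99315036), which C/EBP proteins induce early in differentiation and which then acts on Pparg, was close to absent from these libraries. It had 8, 5 and 2 counts in the control mice and 2, 6 and 0 counts in the aPU.1KO mice, and fell under the filter on low counts. A count of 3 corresponds to between 0.0413 CPM, in the deepest library, and 0.152 CPM, so that 0 counts in aPU.1KO mouse 3 allow a level of up to 0.142 CPM. No difference in Klf5 was detectable at this depth.

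Klf14 (ENSMUSG00000073209, chromosome 6, 30956023 to 30959078), an imprinted gene expressed from the maternal allele that regulates lipid metabolism in fat, was at 27.9, 40.4 and 25.0 CPM in control and at 24.9, 27.5 and 39.6 CPM in aPU.1KO mice. In each group 1 mouse stood well above the other two, control mouse 2 and aPU.1KO mouse 3, and the groups overlapped over nearly their whole range. The log2 fold change was -0.02 (95% interval -0.58 to 0.55, edgeR adjusted p = 0.969), and it ran from -0.24 to 0.20 over the alternatives.

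**Figure D2:**
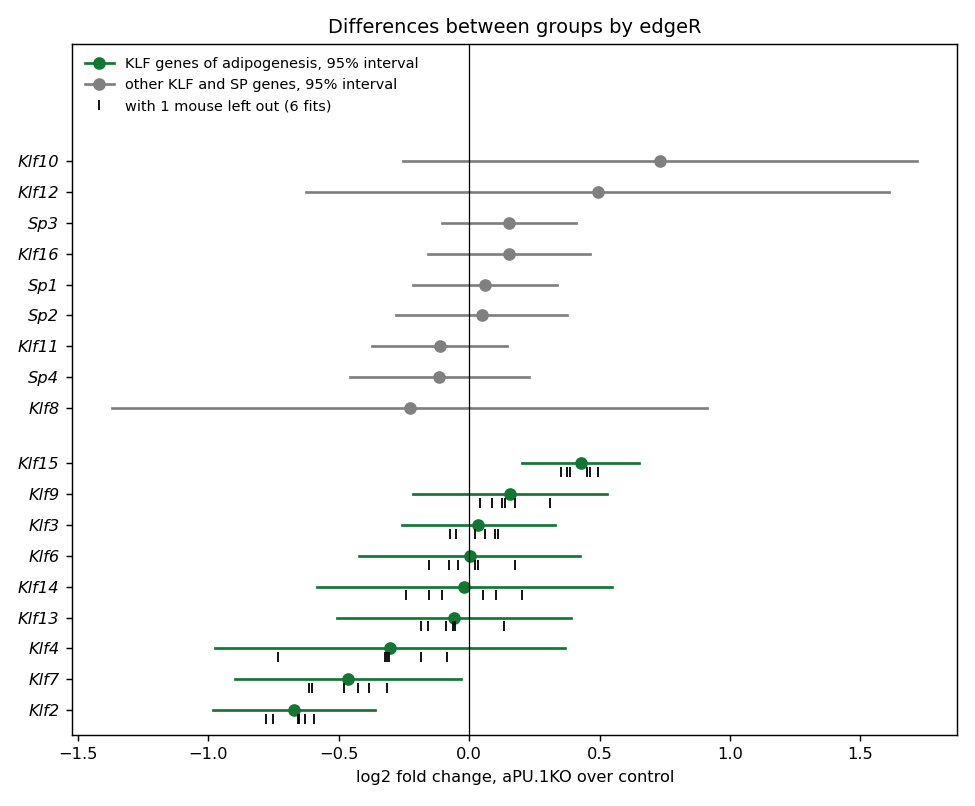
Log2 fold change of aPU.1KO over control (horizontal axis) by edgeR for the 9 KLF genes tested (green) and 9 other KLF and SP genes (grey), with 95% intervals as lines and, under each green interval, the values with 1 mouse left out as black ticks. The intervals of Klf2, Klf7 and Klf15 lie to one side of 0 before adjustment, and the left-out ticks of Klf4 run from -0.73 to -0.09.

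By level per kilobase of the longest coding transcript, Klf6 was the highest of the KLF genes in control mice at 64.0 ± 5.76 CPM per kb (SD, n = 3). It was followed by Klf4 (42.0 ± 0.55), Klf15 (22.6 ± 2.02), Klf9 (20.4 ± 0.74), Klf2 (16.8 ± 1.64), Klf13 (14.0 ± 0.31), Klf3 (12.7 ± 1.46), Klf14 (10.2 ± 2.69) and Klf7 (4.69 ± 0.99), and Klf5 came last at 0.0406 ± 0.0219 CPM per kb. Neighbours in this order were apart in the 3 control mice except Klf13 and Klf3, and Klf3 and Klf14, whose ranges overlapped. With all merged exons as the length, Klf3 and Klf14 change places. The control ranges of Klf15 (19.0 to 22.2 CPM per kb) and Klf9 (18.5 to 19.8) then overlap, as do those of Klf13 and Klf14, and of Klf3 and Klf7.

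In aPU.1KO mice Klf6 (64.1 ± 14.8 CPM per kb) and Klf4 (34.0 ± 15.2) again had the highest mean levels, but Klf4 exceeded Klf15 (30.4 ± 2.28) in only 1 of the 3 mice. Klf2, at 10.5 ± 1.46 CPM per kb, was the fifth by mean in control mice and the seventh in aPU.1KO mice, after Klf13 (13.4 ± 3.52) and Klf3 (13.0 ± 1.64), and its range overlapped those of both. With merged exons the order of 3 genes changed in aPU.1KO mice, and Klf2 was then the sixth, above Klf3 (6.04 CPM per kb). Klf15, Klf9 and Klf13 were apart from one another in this group, and so were Klf14 (10.0 ± 2.57), Klf7 (3.40 ± 0.53) and Klf5 (0.0371 ± 0.0409). Levels per kb were set side by side as a description and not tested.

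**Figure D3:**
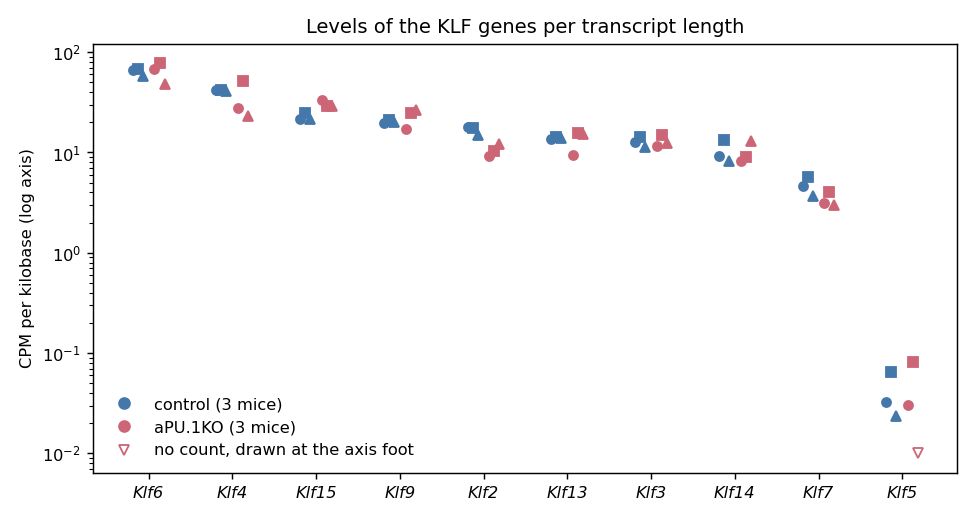
Levels in CPM per kilobase of the longest coding transcript (log axis) for the 10 KLF genes, ordered by the control mean, with 1 symbol per mouse in control (blue) and aPU.1KO (red). Klf6 and Klf4 lead, Klf5 lies far below the other 9 genes, and its open triangle at the foot stands for the aPU.1KO mouse with 0 counts.

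The other members of the KLF and SP family share the zinc fingers. Of 16 listed, 9 were tested, and none had an unadjusted edgeR p under 0.05, beside 25.7% of all genes. Their median log2 fold change was 0.06. Klf10, a gene induced by TGFβ and by the circadian clock, had the largest value, 30.0, 30.6 and 32.0 CPM in control and 26.2, 89.2 and 38.3 CPM in aPU.1KO mice (log2 fold change 0.73, unadjusted p 0.122), with aPU.1KO mouse 2 far above the other 5 mice. Klf8 was at 1.90 CPM in that mouse and at 6.27 to 8.57 CPM in the other 5 (log2 fold change -0.23). Klf12 had a log2 fold change of 0.49 at levels of 0.317 to 1.27 CPM. Klf11, Klf16, Sp1, Sp2, Sp3 and Sp4 lay between -0.11 and 0.15.

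Of the 12 genes that KLF proteins are known to act on in adipogenesis, 11 were tested and Dlk1 was too low. An unadjusted edgeR p under 0.05 was reached by 7 of the 11, all of them higher in aPU.1KO mice, beside the 11.9% of all genes given above, and none had an adjusted p under 0.05. Their median log2 fold change was 0.36, and 4 to 7 were higher at that p over the alternative fits, with 4 without control mouse 1. Leaving out aPU.1KO mouse 2 also gave 4, and in that fit 1 target gene, Gata2, which holds adipogenesis back, was lower at that p. The 3 with the smallest p were Srebf1, the regulator of fatty acid synthesis (log2 fold change 0.59, standard error 0.14, p 0.00463), Cebpa (0.36, standard error 0.09, p 0.00542) and Bcat2, the mitochondrial enzyme that starts branched-chain amino acid breakdown (0.71, standard error 0.20, p 0.00884). Cebpa averaged 683 ± 22.8 CPM in the controls and 876 ± 39.9 CPM in the knockout group (SD, n = 3), and each of the 3 genes had groups that did not overlap. Fabp4 and Slc2a4 stand in both this list and that of adipocyte markers, 8 of whose 10 genes were higher at the same p (2 without control mouse 1), so the lists are not separate evidence.

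Of 6 genes that KLF2 and KLF4 are known to regulate in endothelium, 1 was lower at an unadjusted p under 0.05, beside 13.7% of all genes, and none at an adjusted one. Their median log2 fold change was -0.30, over a list that mixes genes KLF2 induces with genes it restrains, so it has no set direction. The gene lower at that p was Vcam1, an adhesion molecule that KLF2 restrains, at 37.7 ± 16.5 CPM in the controls and 10.9 ± 2.22 CPM in the knockout group (SD, n = 3; log2 fold change -1.79, standard error 0.36, unadjusted p 0.00184, edgeR adjusted p = 0.0764). S1pr1, a receptor that KLF2 induces, had a log2 fold change of -0.59 (p 0.0838), and Edn1, the endothelin gene, one of 0.73 (p 0.0973) at 1.00 CPM in control mice. Over the alternative fits 1 to 3 of the 6 were lower at an unadjusted p under 0.05.

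The 13 cofactors through which KLF proteins act had 4 genes at an unadjusted p under 0.05, 2 in each direction (13.7% of all genes were lower and 11.9% higher at that p), none at an adjusted one, and a median log2 fold change of 0.06. Sap30, a subunit of the Sin3 corepressor complex, had 3.77 ± 1.48 CPM in the controls and 1.34 ± 0.30 CPM in the knockout group (SD, n = 3; log2 fold change -1.49, standard error 0.37, p 0.00551). The deacetylase genes Hdac3 (log2 fold change 0.35, p 0.0295) and Hdac2 (0.19, p 0.0306) lay above the control range in all 3 aPU.1KO mice. Without control mouse 1, and likewise without control mouse 3, the count of cofactors under that p was 1. Like those of the members, these shares are near those of all genes.

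Glucocorticoids induce Klf9 and Klf15, and 9 genes of the glucocorticoid response were read beside them. None had an unadjusted edgeR p under 0.05, beside 25.7% of all genes, and their median log2 fold change was 0.22. The receptor gene Nr3c1 (log2 fold change 0.23, p 0.134), Mt1 (0.43, p 0.147) and Zbtb16 (0.31, p 0.15) had the smallest p of the 9. Their summed level was 1129, 1121 and 1121 CPM in the control mice and 1169, 1536 and 1058 CPM in the aPU.1KO mice, a spread in which aPU.1KO mouse 2 stood apart, whereas Klf15 was highest in aPU.1KO mouse 1. The part of glucocorticoids in the Klf15 level was not tested.

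**Figure D4:**
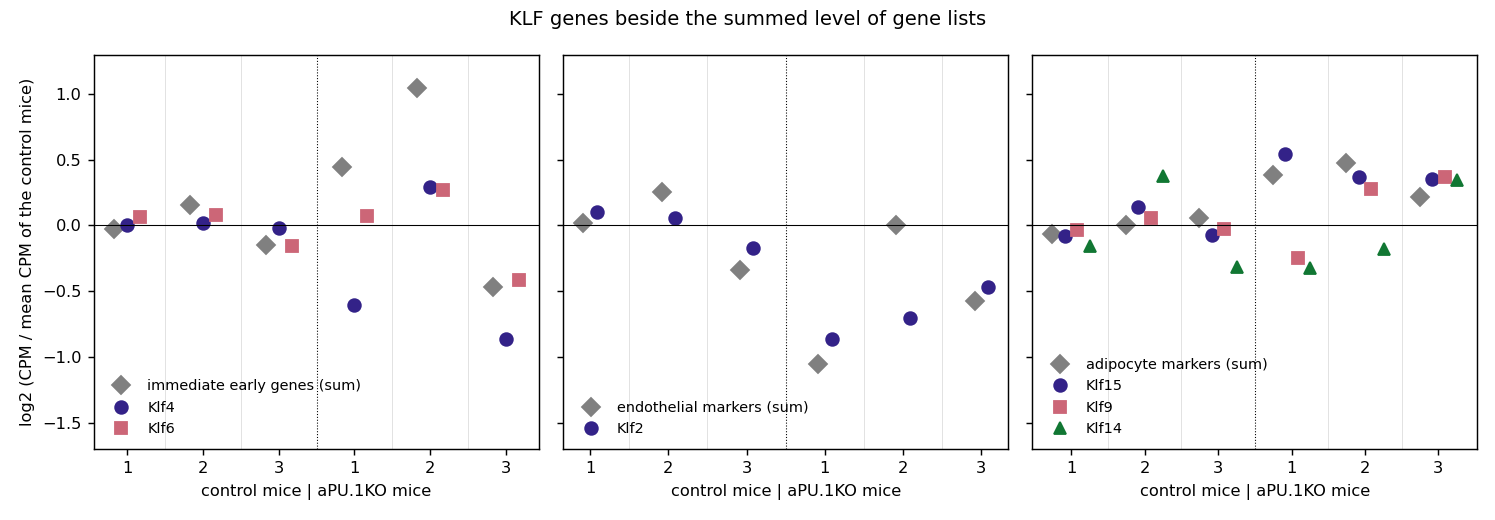
Level of KLF genes in each mouse relative to the control mean (log2, vertical axis) beside the summed level of a gene list (grey diamonds), with control mice 1 to 3 on the left and aPU.1KO mice 1 to 3 on the right of each panel. Klf4 and Klf6 are highest in aPU.1KO mouse 2 and lowest in aPU.1KO mouse 3, as is the immediate early sum, Klf2 stays below the controls in aPU.1KO mouse 2 where the endothelial sum does not, and Klf15 and the adipocyte sum are above the controls in all 3 aPU.1KO mice.

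The genes most like the 3 KLF genes with the largest fold changes were ranked by Pearson's r of log2 CPM over the 6 libraries among 11896 genes, as a description, since the libraries share their group difference. For Klf2 they were Tbc1d10a (r = 0.992), the LIM homeobox gene Lhx6 (r = 0.990) and the elastin gene Eln (r = 0.990). For Klf7 they were Gja5, the gene of connexin 40 (r = 0.990), Clca2 (r = 0.988) and Crtc3, a CREB coactivator gene (r = 0.986). For Klf15 they were Acad12, of the acyl-CoA dehydrogenase family (r = 0.996), Fmo5, a flavin monooxygenase gene (r = 0.995), and the serine racemase gene Srr (r = 0.995). Mean Eln was 21.8 CPM in controls and 11.6 CPM in the knockout group, and mean Fmo5 was 40.2 CPM and 53.5 CPM.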

How the data were processed

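Each library was made from the adipocyte fraction of 1 mouse. The authors quantified the reads with Salmon and summed them per gene, and deposited estimated counts, which are whole numbers and not normalized. The submitters' processing notes name Salmon, FastQC and GRCm38, and the versions and the strand setting are not given in the sources used here. Of 35122 genes, 35102 were matched to GENCODE M21 (GRCm38), and the other 20 hold 0.00188% of counts. All 6 columns were used, and 0 columns were left out. Totals were 20550252 to 69283842, and no 2 libraries of a group were duplicates. The floor of 3 counts covers counting error only.

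Groups were taken from the genotype labels. The fit over 3 control and 3 aPU.1KO mice used edgeR 4.0.16 under R 4.3.3 (low genes removed by filterByExpr, TMM, glmQLFit and glmQLFTest with defaults, Benjamini-Hochberg over 13925 genes), and 95% intervals use the t distribution of that fit. An exact two-sided permutation test of 3 against 3 cannot give a p below 0.1, the value for Klf2 and for Klf15. On simulated data edgeR called 170 of 200 genes changed 3-fold and 13 unchanged genes, with 13925 genes simulated, and 1 gene when none was changed. The KLF differences were smaller (1.59-fold for Klf2), and no change of that size was simulated, so this does not show how often such a change is called. Alternatives were RLE and upper quartile factors, 2 other filters, DESeq2 1.42.0, limma-voom 3.58.1, legacy = FALSE, control library 1 thinned to 22772046 counts, and each mouse left out.

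The members and gene lists were chosen with earlier results of these data known. The genes named were the members, every other KLF or SP gene tested, the 3 of each pathway list with the smallest unadjusted p, and the 3 genes most correlated with each of the 3 members of largest fold change (average log2 CPM of at least 1). Klf5 fell under the filter. Fabp4, Slc2a4, Fos, Egr1, Jun, Dlk1, Gata2, Lep and Fgb are named beyond that rule, chosen after their values were seen.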

Additional observations from a re-analysis of the deposited data

How the results depend on the processing

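Of 14 alternatives, DESeq2 called 2 KLF genes at an adjusted p under 0.05 (Klf2 and Klf15), beside 11.0% of all genes, and edgeR called none, except that leaving out 1 mouse in turn gave 0 to 1 (Klf15, without control mouse 2, beside 8.34% of all genes). The count of KLF genes with groups that did not overlap was 2 to 4 with 1 mouse left out, 4 without aPU.1KO mouse 1 (Klf9 and Klf13 added) and 4 without aPU.1KO mouse 2 (Klf4 and Klf7 added), where 40.5% and 43.6% of all genes were apart. The count at an unadjusted p under 0.05 was 2 to 4, beside 12.3% to 27.4% of all genes in these fits, and the median log2 fold change ran from -0.15 to 0.10, so that its sign is not fixed. With merged exons as the length, the order changed for 2 genes in control and 3 in aPU.1KO mice. The sign of Klf6 turned with RLE factors (-0.012), upper quartile factors (-0.00052), at least 10 counts in every library (-0.021), no filter (-0.017), DESeq2 (-0.012), limma-voom (-0.017) and thinning (-0.0041), and ran from -0.15 to 0.18 with 1 mouse left out. That of Klf14 turned with limma-voom (0.0013) and ran from -0.24 to 0.20 with 1 mouse left out, that of Klf13 from -0.19 to 0.13 and that of Klf3 from -0.073 to 0.11. The causes were not tested.

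Applying the same alternatives to the other lists was chosen after seeing the data. Over these fits 12.3% to 27.4% of all genes had an unadjusted p under 0.05 in either direction. At an unadjusted p under 0.05, the endothelial targets numbered 2 with no filter, 2 with DESeq2 and 2 with control mouse 1 thinned, and 1 to 3 with 1 mouse left out. The immediate early genes numbered 1 with no filter, 3 with DESeq2 and 0 to 12 with 1 mouse left out, with 12 without aPU.1KO mouse 3. With 1 mouse left out, the other KLF and SP genes numbered 0 to 1, the cofactors 1 to 5, the target genes 4 to 6 and the glucocorticoid genes 0 to 2. Over all alternatives, the adipocyte markers higher at that p numbered 2 (without control mouse 1) to 9, and those lower numbered 1 to 11 (without aPU.1KO mouse 2) of the endothelial, 0 to 4 (without control mouse 3) of the mesothelial, 0 to 3 (without aPU.1KO mouse 3) of the lymphocyte and 2 to 10 of the hepatocyte list (with at least 10 counts in every library, only 2 of its genes were left, both lower), 9 to 10 of the macrophage, 6 to 8 of the progenitor and 3 to 4 of the mural list. The paper describes the control mice as littermates of the knockout mice. The labels name no litter and give no replicate number that the groups share, so no paired analysis was run and shared litters were not modelled. Klf5, with 0 to 8 counts, entered only the fits without the filter and by DESeq2.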
